A study of Mus musculus with 20 samples.

Results

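The genes described here code for transporters and marker proteins of astrocytes, the star-shaped glia that surround synapses and blood vessels. They are Slc1a3, Slc1a2, Glul, Aqp4, Gja1, Aldh1l1, Aldoc, Mfge8, Gfap and S100b, 10 of the 21911 protein-coding genes in the annotation used. They were picked by name as known astrocyte genes, with earlier results of these data known. From its single-cell RNA data, the study named Slc1a3, Aldh1l1 and Mfge8 among the astrocyte genes of a cell cluster seen only in Tcf4 cKO. The list was thus not independent of the data. All consensus ATAC-seq regions that the authors' annotation assigned to a gene of this list were taken, 33 of 32120, together with every peak of the ATAC-seq, histone and Tcf4 lists in each gene body with 20 kb on each side. The study asked how the transcription factor Tcf4 shapes the chromatin of cells descended from Nkx2.1-expressing radial glia of the ventral telencephalon, sorted by GFP fluorescence from the neocortex of mice at postnatal day 7 or 8. WT mice carried the Nkx2.1-Cre driver and the Ai3 Cre reporter. Tcf4 cKO mice were Tcf4 f/f; Nkx2.1-Cre and were likewise crossed to the Ai3 reporter. Tcf4 was thus deleted in Nkx2.1-expressing radial glia and all their progeny. Tcf4-tag mice carried HA and Flag tags fused to the end of Tcf4 at its own locus, expressed in the same lineage once Nkx2.1-Cre was active. There were 2 libraries per group for ATAC-seq (accessible chromatin), for Cut&Tag of H3K4me1, H3K27ac and H3K27me3 in WT and Tcf4 cKO cells, and for anti-Flag Cut&Tag in Tcf4-tag cells, 18 in all. A library was made from 50000 sorted cells, or from 200000 nuclei for Tcf4. The 2 single-cell RNA samples of the series were not analysed here.

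Each library held between 15085 and 72790 peaks, and read depth was not analysed here. Peak lists do not show whether Tcf4 was deleted, so the genotypes rest on the labels. No label says that libraries of a group came from separate animals, so p-values measure only the spread between these libraries. The sorted cells are a mixture, and a changed share of astrocytes cannot be told apart from changed chromatin within a cell. An ATAC-seq peak lay within 1 kb of an annotated transcript start in all 4 libraries for 8 of the 10 genes and for 29 of 34 other astrocyte genes. The same held for 5 of 6 markers of oligodendrocyte precursor cells (OPCs), 4 of 6 of interneurons, 2 of 6 of microglia, 4 of 6 of endothelial cells and 3 of 6 of projection neurons. The share over all coding genes was not computed, so these counts do not show which cells were present.

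Astrocytes clear glutamate from synapses with the transporters encoded by Slc1a3 (GLAST) and Slc1a2 (GLT-1), turn it into glutamine with glutamine synthetase, the product of Glul, and move water through the channel Aqp4. Gap junctions of connexin 43, the product of Gja1, couple them into networks. Active enhancers carry H3K4me1 with H3K27ac, active promoters carry H3K27ac, and H3K27me3 is the mark left by Polycomb complexes at silenced genes. Tcf4 binds E-boxes, and nuclear factor I proteins, which promote astrocyte formation, bind the half-site TTGGCA.

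The sequences below are the central 150 bases of the regions whose accessibility differed most between genotypes, shown because the accounts of Slc1a3, Aldh1l1 and Mfge8 turn on them. They were read from the plus strand of mm10, and regions are numbered along the chromosome within each gene. Capitals mark the E-box core CANNTG, of which CAGCTG is a special case, and the nuclear factor I core TTGGCA on either strand.
Slc1a3 region 10, chr15:8781448-8781597: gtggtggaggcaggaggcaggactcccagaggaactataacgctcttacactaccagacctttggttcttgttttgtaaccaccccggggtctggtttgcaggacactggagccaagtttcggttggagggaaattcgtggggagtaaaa
Slc1a3 region 6, chr15:8706200-8706349: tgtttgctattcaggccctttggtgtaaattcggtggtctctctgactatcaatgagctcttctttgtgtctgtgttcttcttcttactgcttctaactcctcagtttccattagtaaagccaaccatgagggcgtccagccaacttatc
Slc1a3 region 9, chr15:8739661-8739810: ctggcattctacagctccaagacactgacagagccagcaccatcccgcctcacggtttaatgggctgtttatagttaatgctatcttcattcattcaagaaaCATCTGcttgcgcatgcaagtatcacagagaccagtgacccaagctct
Aldh1l1 region 7, chr6:90541483-90541632: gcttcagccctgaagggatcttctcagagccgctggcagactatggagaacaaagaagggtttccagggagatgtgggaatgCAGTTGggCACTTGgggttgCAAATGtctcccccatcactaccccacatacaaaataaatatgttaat
Aldh1l1 region 8, chr6:90550649-90550798: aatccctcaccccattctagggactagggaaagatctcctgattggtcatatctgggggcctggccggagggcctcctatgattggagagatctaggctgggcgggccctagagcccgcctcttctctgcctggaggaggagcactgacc
Mfge8 region 3, chr7:79194825-79194974: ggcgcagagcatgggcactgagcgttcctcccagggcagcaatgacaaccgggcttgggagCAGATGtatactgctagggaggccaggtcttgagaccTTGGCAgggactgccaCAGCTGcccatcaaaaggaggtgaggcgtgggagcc
Over all 32120 consensus regions, the central 150 bases held CANNTG in 49.0%, CAGCTG in 12.9% and TTGGCA in 8.97%. Among the 33 regions of the astrocyte genes the numbers were 18, 3 and 7. Aldh1l1 region 7 held CANNTG at 3 places, whereas Slc1a3 regions 6 and 10 and Aldh1l1 region 8 held none of the cores in this window. A match describes letters only.

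Accessibility of the astrocyte gene regions was shifted towards Tcf4 cKO in the authors' mean values. These are the log2 mean of normalized reads per genotype, for which no spread is available. Peak enrichments per library, described below, split evenly between the directions. The mean was higher in Tcf4 cKO at 22 of 33 regions, and the median difference, Tcf4 cKO minus WT, was 0.30 against -0.10 over all consensus regions. Slc1a3 region 1, at -0.04, ranked 13257 of 32120 from the highest difference, so fewer than 13257 of all regions had a higher mean in Tcf4 cKO. In 12 of 33 regions (36.4%) the mean was over 0.5 higher in Tcf4 cKO, against 8.38% of all regions, and in 4 (12.1%) it was over 0.5 lower, against 12.6% of all regions. Most of the higher regions belonged to Slc1a3, Aldh1l1 and Mfge8, and the others to Aqp4 and Gja1. Slc1a2, Glul, Aldoc, Gfap and S100b had none. Slc1a3 and Aldh1l1 also had the most regions on the list, and regions of the same gene are not separate genes. Just above the threshold were Slc1a3 region 4 at 0.50 and Mfge8 region 1 at 0.56, and the nearest region below it was Slc1a3 region 2 at 0.38. On the lower side, Glul region 3 at -0.62 was just past it. By class, means over 0.5 higher were found at 7 of 14 intronic regions, against 13.8% of all intronic regions, at 3 of 10 intergenic regions, against 13.4%, and at 2 of 9 promoter regions, against 1.98%. Promoters thus had the smallest share over the genome too.

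**Figure D1:**
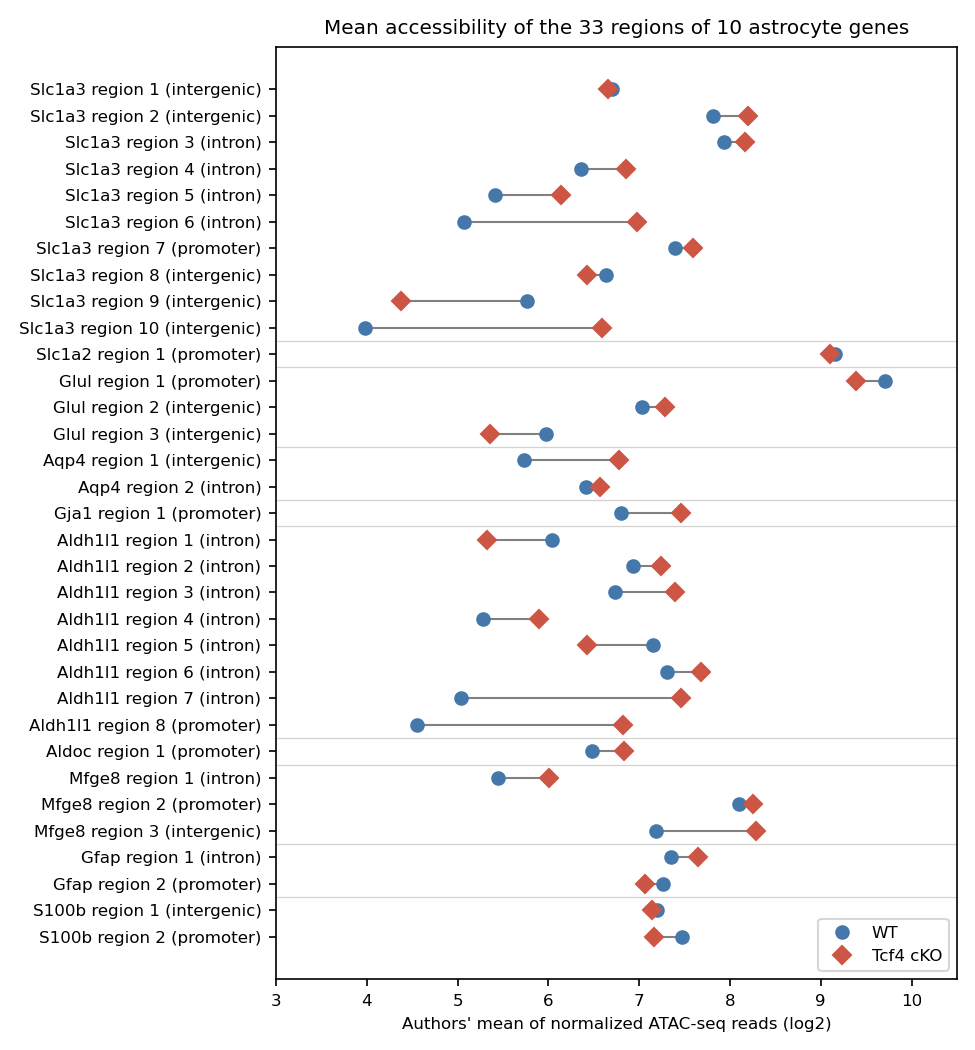
Each row is 1 of the 33 consensus regions of the astrocyte genes, and the symbols give the authors' mean of normalized ATAC-seq reads (log2) in WT (circle) and Tcf4 cKO (diamond). The longest lines to the right are at Slc1a3 regions 10 and 6 and Aldh1l1 regions 7 and 8, with differences from 1.90 to 2.61, and the longest to the left is at Slc1a3 region 9 (-1.39).

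For a test over libraries, the highest peak fold enrichment over background in a region was compared on the log2 scale with limma, over the 30379 regions with a peak in all 4 libraries. Of the astrocyte gene regions 27 could be tested. By limma 1 was called higher in Tcf4 cKO at an adjusted p under 0.05, against 1.45% of all tested regions, and 0 were called lower, against 1.5%. At an unadjusted p under 0.05 there were 1 higher and 3 lower, together 4 of 27, and 14.2% of all tested regions were under it, so this count was near the background. A further 2 regions had peaks in Tcf4 cKO replicates 1 and 2 while both WT replicates lacked them, against 0.56% of all regions, and 0 had the reverse, against 1.02%. Peak enrichment and the authors' mean are different measures, and their differences had the same sign in 18 of the 27 regions (18924 of 30379 overall). Enrichments below are as deposited, and limma used them centred on each library's median, so groups that overlap on the deposited scale can separate on the centred scale and the reverse. At 6 of the 27 the mean was higher and the enrichment lower in Tcf4 cKO. On the centred scale, with a missing peak counted as lowest, both Tcf4 cKO libraries were above both WT libraries at 10 of the 33 regions. They were below both at 10. Over all 32120 regions these numbers were 7258 and 6974.

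**Figure D2:**
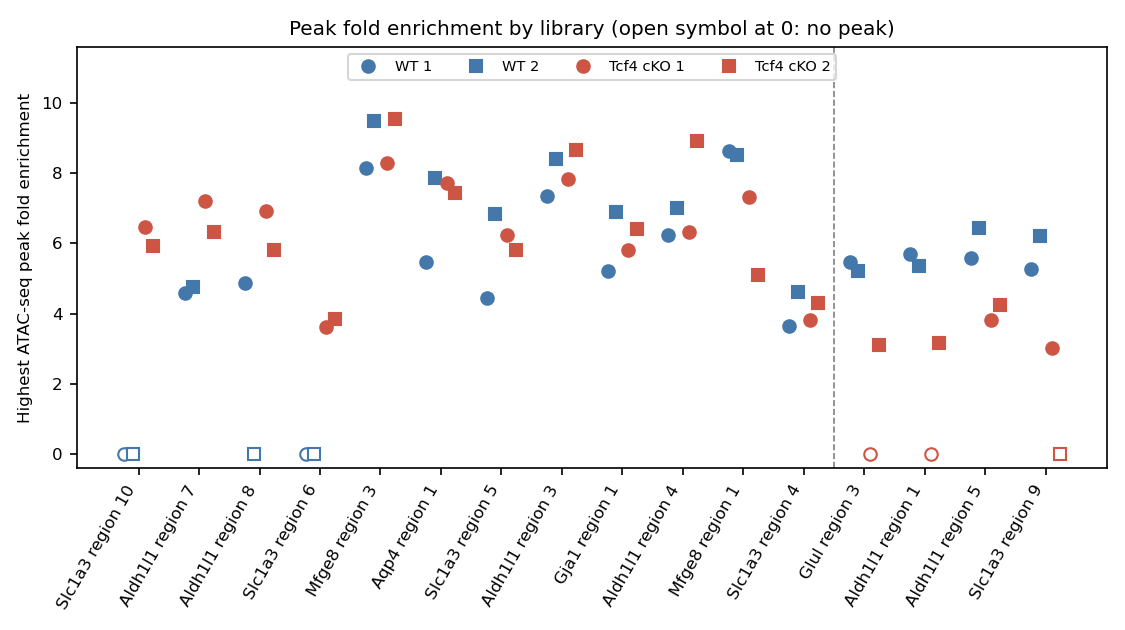
Highest ATAC-seq peak fold enrichment (linear scale) in each library, for the 16 regions whose authors' means differed by over 0.5 (log2), ordered from the largest gain to the largest loss with a dashed line between gains and losses. Open symbols at 0 are libraries without a peak. Both Tcf4 cKO libraries lie above both WT libraries at the 4 leftmost regions, and on this deposited, uncentred scale the groups interleave at most of the other gains.

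Slc1a3, the glutamate transporter of immature and mature astrocytes, had 10 regions at chr15:8627133-8782000, and 2 of them had peaks in Tcf4 cKO alone. Region 10 (chr15:8781045-8782000), 70.7 kb upstream of the RefSeq start in intergenic sequence, had no peak in either WT library and enrichments of 6.47 and 5.94 in the Tcf4 cKO libraries. Region 6 (chr15:8706032-8706518), in intron 2, had no peak in either WT library and enrichments of 3.61 and 3.85 in Tcf4 cKO. The groups were thus separated by the presence of a peak. The authors' means went from 3.98 to 6.59 at region 10 and from 5.07 to 6.97 at region 6, 6.11-fold and 3.73-fold on a linear scale. These differences ranked 62 and 224 among all 32120 regions. Neither region was in the limma fit, since both WT values were missing.

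The other Slc1a3 regions were accessible in both genotypes. Region 9 (chr15:8739495-8739976), 28.9 kb upstream, went the other way, with enrichments of 5.28 and 6.22 in WT, 3.02 in Tcf4 cKO replicate 1 and no peak in replicate 2, and authors' means of 5.76 and 4.38. Region 5 in intron 3 overlapped between the groups at 4.44 and 6.83 in WT and 6.25 and 5.81 in Tcf4 cKO, although its mean was 0.72 higher in Tcf4 cKO. Region 4, also in intron 3, overlapped at 3.64 and 4.62 against 3.82 and 4.30. Region 3 (chr15:8659352-8660490, intron 3) was lower in both Tcf4 cKO libraries, with 8.28 and 7.98 in WT against 5.64 and 6.40, at an adjusted p of 0.324 by limma and a mean that was 0.23 higher. Region 8, upstream of the gene, was likewise lower in both Tcf4 cKO libraries (8.68 and 9.33 against 5.99 and 7.82). The promoter, region 7 (chr15:8710093-8710930), was open in all libraries, with 6.23 and 6.17 in WT against 5.43 and 4.94 in Tcf4 cKO. Its enrichment was thus lower in both Tcf4 cKO libraries, its mean was 0.20 higher, and limma gave an adjusted p of 0.762. Region 10 carried an H3K4me1 peak in Tcf4 cKO replicate 1 alone, and region 6 carried no histone or Tcf4 peak in any library.

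Slc1a2, the main glutamate transporter of mature astrocytes, had 1 region, a promoter at chr2:102658155-102659703. The enrichments were 8.32 and 7.86 in WT and 7.73 and 6.94 in Tcf4 cKO, lower in both Tcf4 cKO libraries than in either WT library. On the centred scale the groups overlapped, and limma gave a log2 difference of -0.05 ± 0.16 (SE) with an adjusted p of 0.956. The authors' mean was 9.16 in WT and 9.11 in Tcf4 cKO. This region lies at the outer start of the gene model, 47.5 kb before the RefSeq start. It carried H3K27ac in all 4 libraries (4.81 and 4.67 in WT, 4.14 and 3.69 in Tcf4 cKO) together with H3K27me3 in all 4 (3.39, 2.67, 2.71 and 2.78).

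Glul, which codes for glutamine synthetase, had the most accessible promoter of the list per length. Its promoter (chr1:153899394-153901094) had enrichments of 8.16 and 6.61 in WT and 7.14 and 8.36 in Tcf4 cKO, which interleave. An H3K4me1 peak lay there in both Tcf4 cKO libraries (2.37 and 2.63) and neither WT library, while an H3K4me1 peak upstream of the gene (chr1:153885505-153886561) had 4.43 and 4.88 in WT and none in Tcf4 cKO. The distal region 3 (chr1:153963849-153964424), 64.2 kb downstream of the start, had 5.46 and 5.21 in WT, no peak in Tcf4 cKO replicate 1 and 3.11 in replicate 2, and its authors' mean was 0.62 lower in Tcf4 cKO.

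Aqp4, the water channel of astrocyte endfeet, had no ATAC-seq peak in either WT library anywhere in the gene body with 20 kb on each side. Tcf4 cKO replicate 1 had 2 peaks there and replicate 2 had 1. The peak the Tcf4 cKO libraries shared lay inside the gene model, at chr18:15405086-15405463 with an enrichment of 3.01 in replicate 1 and at chr18:15405076-15405477 with 4.01 in replicate 2. No consensus region lay in the window. The length under ATAC-seq peaks was 0 and 0 bases in WT and 938 and 402 bases in Tcf4 cKO. An H3K4me1 peak near the 3′ end of the gene (chr18:15391533-15392141) had 3.72 and 4.71 in Tcf4 cKO and was absent in WT. No H3K27ac, H3K27me3 or Tcf4 peak lay in the window in any library. Both consensus regions assigned to Aqp4 lay farther away. Region 1 (chr18:15355088-15356056), 55.4 kb downstream of the outer start, had enrichments of 5.47 and 7.86 in WT and 7.73 and 7.44 in Tcf4 cKO, which overlap. On the centred scale both Tcf4 cKO values were above both WT values, and limma gave an adjusted p of 0.46. Its authors' mean was 1.05 higher in Tcf4 cKO, and an H3K27ac peak lay on it in both Tcf4 cKO replicates (3.93 and 4.50), with none in WT.

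Gja1, which codes for connexin 43, had 1 region, classed as promoter (chr10:56377873-56379268). The groups overlapped, with enrichments of 5.22 and 6.90 in WT and 5.81 and 6.42 in Tcf4 cKO (limma adjusted p = 0.878). The authors' mean was 6.80 in WT and 7.46 in Tcf4 cKO, 0.66 higher. H3K4me1, H3K27ac and H3K27me3 peaks were all present there in all 4 libraries.

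Aldh1l1, which codes for a folate enzyme and served the study as a marker of all astrocytes, had the region that passed the test. It had 8 regions on chromosome 6, and the region called by limma was region 7 (chr6:90541038-90542078), in intron 1 of a long non-coding transcript of the gene and 9.2 kb before the RefSeq start of the coding transcript at position 90550793. Its enrichment was 4.58 and 4.76 in WT and 7.22 and 6.33 in Tcf4 cKO. Both Tcf4 cKO libraries were above both WT libraries. The log2 difference by limma was 0.62 ± 0.16 (SE), with an adjusted p of 0.0354, and the authors' mean went from 5.04 to 7.46, a difference of 2.42 that ranked 90 of 32120. The call was lost without WT replicate 1 (adjusted p = 0.165), WT replicate 2 (0.225) or Tcf4 cKO replicate 1 (0.196) in the limma fit, and kept without Tcf4 cKO replicate 2 (0.0336), at log2 differences from 0.54 to 0.71. It was also lost with quantile normalization (0.0639), with stricter peaks (0.0553) and with missing peaks filled in (0.135).

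The promoter of the coding transcript, Aldh1l1 region 8 (chr6:90550177-90551271), was open in 1 WT library. Its enrichments were 4.88 in WT replicate 1, no peak in WT replicate 2, and 6.93 and 5.80 in Tcf4 cKO. It was not in the limma fit, since a peak was missing. The authors' mean was 4.55 in WT and 6.82 in Tcf4 cKO, 4.83-fold higher and rank 110 of 32120. Among the 9 promoter regions of the list it had the lowest mean per kb in WT.

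Histone marks at both Aldh1l1 regions differed between genotypes in presence. H3K27ac at region 7 was absent from both WT libraries and present in both Tcf4 cKO libraries. Their peaks overlapped only at their edges and together spanned chr6:90541404-90541978, with 3.45 in replicate 1 and 2.80 in replicate 2. A separate peak of 3.04 at chr6:90540809-90541300 was in replicate 2 alone. H3K4me1 was present at region 7 in all 4 libraries (3.02 and 4.76 in WT, 3.12 and 2.80 in Tcf4 cKO). At region 8 an H3K4me1 peak was present in both Tcf4 cKO libraries (2.73 and 3.14) and neither WT library, and H3K27me3 was present in WT replicate 2 alone (2.59). Upstream, H3K27me3 peaks at chr6:90471512-90473741 (1.59 and 1.66) and chr6:90485676-90486911 (1.69 and 1.78) occurred in both WT libraries and neither Tcf4 cKO library. These were below the median enrichment of each WT library (2.46). Within the gene, chr6:90498889-90501507 had an H3K27me3 peak in all 4 libraries (2.33 and 2.42 in WT, 2.59 and 2.26 in Tcf4 cKO). Past its end, chr6:90604674-90605274 had no peak in WT replicate 1, 2.62 in WT replicate 2, and 3.39 and 3.10 in Tcf4 cKO. Further H3K27me3 peaks in the window lay in a single library of either genotype. The length under H3K27me3 peaks in the Aldh1l1 window was 7231 and 5340 bases in WT and 4446 and 2983 in Tcf4 cKO. Klf15 and Slc41a3 also lie in this window.

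The remaining Aldh1l1 regions went both ways. Region 1 had 5.69 and 5.35 in WT, no peak in Tcf4 cKO replicate 1 and 3.17 in replicate 2. Region 5 had 5.59 and 6.44 in WT and 3.81 and 4.23 in Tcf4 cKO, with a log2 difference of -0.49 ± 0.16 (SE) and an adjusted p of 0.102 by limma. Their authors' means were 0.73 lower in Tcf4 cKO at each. Region 3 (7.35 and 8.40 in WT, 7.82 and 8.67 in Tcf4 cKO) and region 4 (6.25 and 7.01, 6.34 and 8.93) had means 0.67 and 0.62 higher. Their enrichments overlapped as deposited, whereas on the centred scale both Tcf4 cKO values lay above both WT values, with adjusted p of 0.788 and 0.557 by limma.

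**Figure D3:**
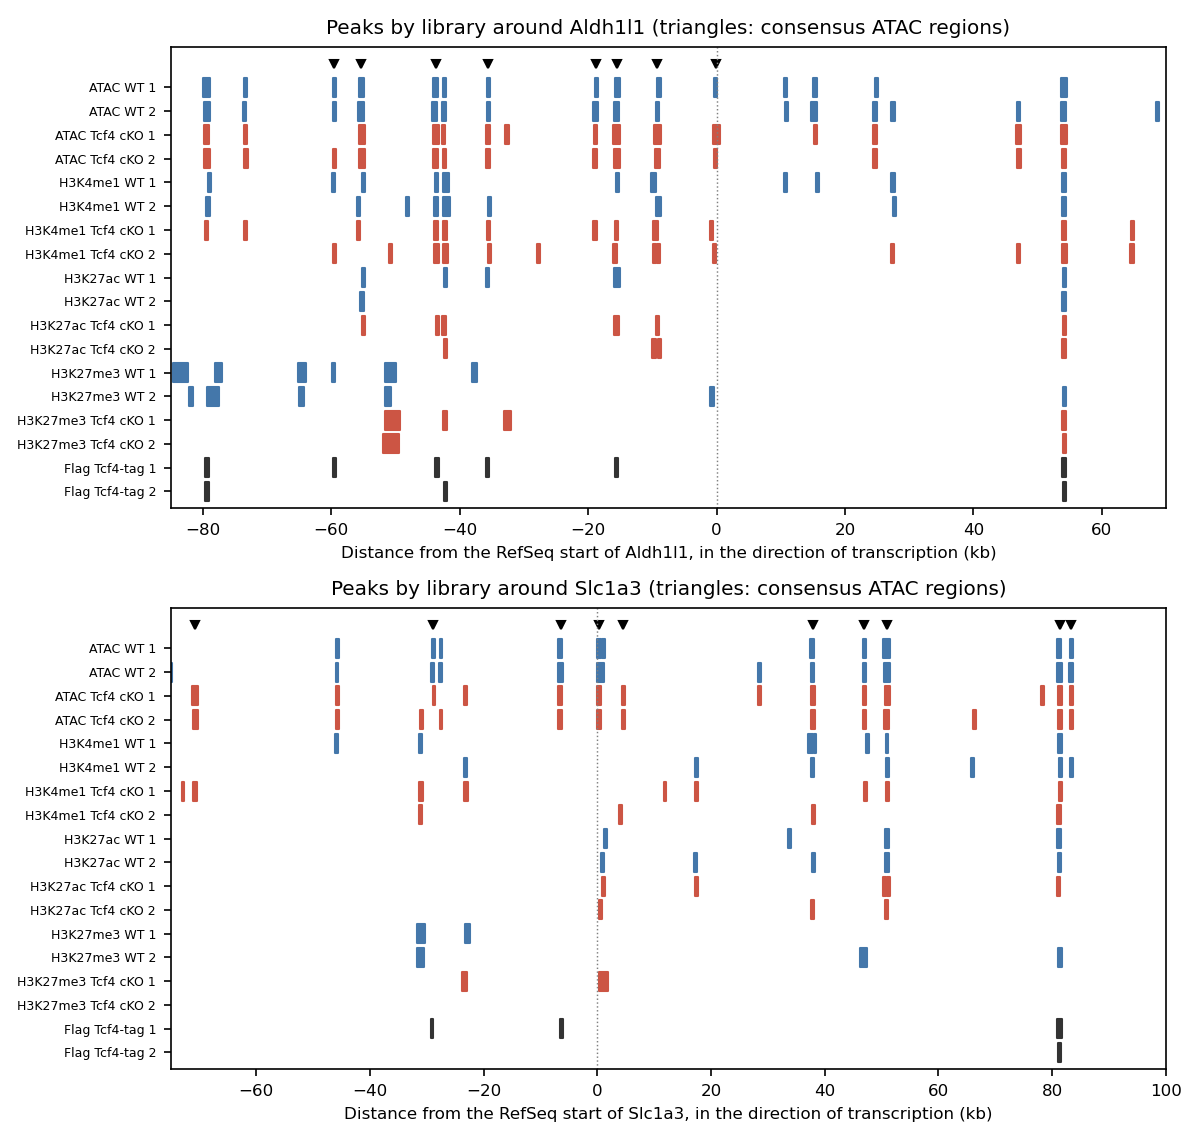
Peaks of each of the 18 libraries around Aldh1l1 and Slc1a3 against the distance from the RefSeq start in kb, with upstream to the left; bars are peaks (drawn at least 0.5 kb wide), blue for WT, red for Tcf4 cKO and black for anti-Flag, and triangles are the consensus ATAC-seq regions. Red ATAC bars without blue ones stand at 70.7 kb upstream and 4.53 kb downstream of the Slc1a3 start, and H3K27ac bars 9.2 kb upstream of the Aldh1l1 start are red alone.

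Aldoc, the brain form of the glycolytic enzyme aldolase, had 1 region at its promoter (chr11:78322400-78323426). The enrichments were 5.94 and 6.19 in WT and 4.45 and 4.76 in Tcf4 cKO, lower in both Tcf4 cKO libraries, but limma gave an adjusted p of 0.395 and the authors' mean was 0.35 higher in Tcf4 cKO. H3K4me1 and H3K27ac were present there in all 4 libraries.

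Mfge8, a secreted protein that bridges dying cells to phagocytes, had its highest gain of mean accessibility 45.8 kb upstream, at region 3 (chr7:79194257-79195542), from 7.19 in WT to 8.28 in Tcf4 cKO. The enrichments there, 8.16 and 9.50 in WT and 8.31 and 9.54 in Tcf4 cKO, overlapped, and limma gave an adjusted p of 0.888. The promoter (chr7:79148478-79149553) had the highest promoter enrichment of the list, at 11.0 and 12.6 in WT and 11.0 and 8.82 in Tcf4 cKO. Region 1, in intron 7, had 8.65 and 8.53 in WT and 7.33 and 5.10 in Tcf4 cKO while its mean was 0.56 higher in Tcf4 cKO. An H3K27ac peak just inside the gene (chr7:79147542-79148090) had 3.16 and 3.62 in Tcf4 cKO and was absent in WT. Acan and Hapln3 share the window.

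Gfap, the intermediate filament of mature and reactive astrocytes, and S100b, a calcium-binding protein, showed no difference in mean accessibility over 0.5. Gfap region 1 (chr11:102898211-102898988), just before the RefSeq start and in an intron of an overlapping gene, had enrichments of 6.95 and 7.84 in WT and 6.08 and 6.04 in Tcf4 cKO (limma adjusted p = 0.688). The Gfap region classed as promoter, at the outer start (chr11:102900852-102901511), overlapped between genotypes at 5.35 and 7.30 against 4.50 and 5.92. The S100b promoter (chr10:76253420-76254379) overlapped at 6.45 and 5.82 against 5.84 and 5.21, and H3K27ac lay on it in all 4 libraries.

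Among the 9 promoter regions, the authors' WT mean per kb (log2 reads per kb) was highest for Glul at 8.94, followed by Slc1a2 at 8.53, Mfge8 at 7.99, Gfap at 7.86, Slc1a3 at 7.65, S100b at 7.53, Aldoc at 6.44, Gja1 at 6.32 and Aldh1l1 at 4.42. In Tcf4 cKO the Aldh1l1 promoter stood at 6.69, beside Aldoc at 6.79 and Gja1 at 6.97. Mean peak enrichment in WT was 11.8 ± 1.14 for Mfge8, 8.09 ± 0.32 for Slc1a2 and 7.39 ± 1.10 for Glul (SD, n = 2). The next 5, from Gfap at 6.32 ± 1.38 to Gja1 at 6.06 ± 1.19 (SD, n = 2), did not differ beyond their spread.

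Histone mark enrichment at the astrocyte genes passed no test. The windows held 75 H3K4me1, 35 H3K27ac and 22 H3K27me3 regions merged over libraries, of which 17, 13 and 4 had a peak in all 4 libraries. By limma 0 were called for each mark, against 0.00383% of all tested regions for H3K4me1 and 0% for both H3K27ac and H3K27me3, and 3, 0 and 0 had an unadjusted p under 0.05, against 7.18%, 6.59% and 16.0% of all tested regions. The 3 H3K4me1 regions had lower enrichment in Tcf4 cKO, and lay in the Aldh1l1 window (2 regions) and at the Mfge8 promoter.

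Presence of a peak in both libraries of 1 genotype and neither of the other separated some mark regions. Of 75 H3K4me1 regions 4 were present in Tcf4 cKO alone (Glul, Aqp4 and 2 at Aldh1l1), against 7.51% of all regions, and 1 in WT alone (Glul), against 2.64%. Of 35 H3K27ac regions 2 were present in Tcf4 cKO alone (Aldh1l1 and Mfge8), against 2.53%, and 0 in WT alone, against 4.23%. Of 22 H3K27me3 regions 0 were present in Tcf4 cKO alone, against 5.36%, and 2 in WT alone, both at Aldh1l1, against 4.05%.

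The length under peaks in each window gave a value per gene and library. For ATAC-seq, Aqp4 was the gene with both Tcf4 cKO libraries above both WT libraries, against 6.24% of coding genes, and 0 genes were lower in both, against 21.7%. As a share of each library's covered length 3 genes were higher. The percentages of coding genes given here belong to the raw lengths. Counts on the share scale have none beside them and cannot be set against a background. For H3K4me1, Glul, Aqp4, Gja1, Aldh1l1 and Gfap were higher, against 37.9%, and Slc1a3 was lower, against 3.14%. The Tcf4 cKO libraries had more H3K4me1 peaks (72790 and 65049) than WT (51510 and 59526), and as a share of each library's covered length 0 genes were higher and 3 lower. For H3K27ac, 0 genes were higher, against 7.47%, and Aldoc and Gfap were lower, against 17.3%, while as a share 2 were higher and 2 lower. For H3K27me3, Gfap was higher (1607 and 722 bases in WT, 2854 and 2812 in Tcf4 cKO), against 13.1%, and Slc1a2 and Aldh1l1 were lower, against 9.36%. Genes Eftud2, Ccdc103, Fam187a and Kif18b also lie in the Gfap window.

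**Figure D4:**
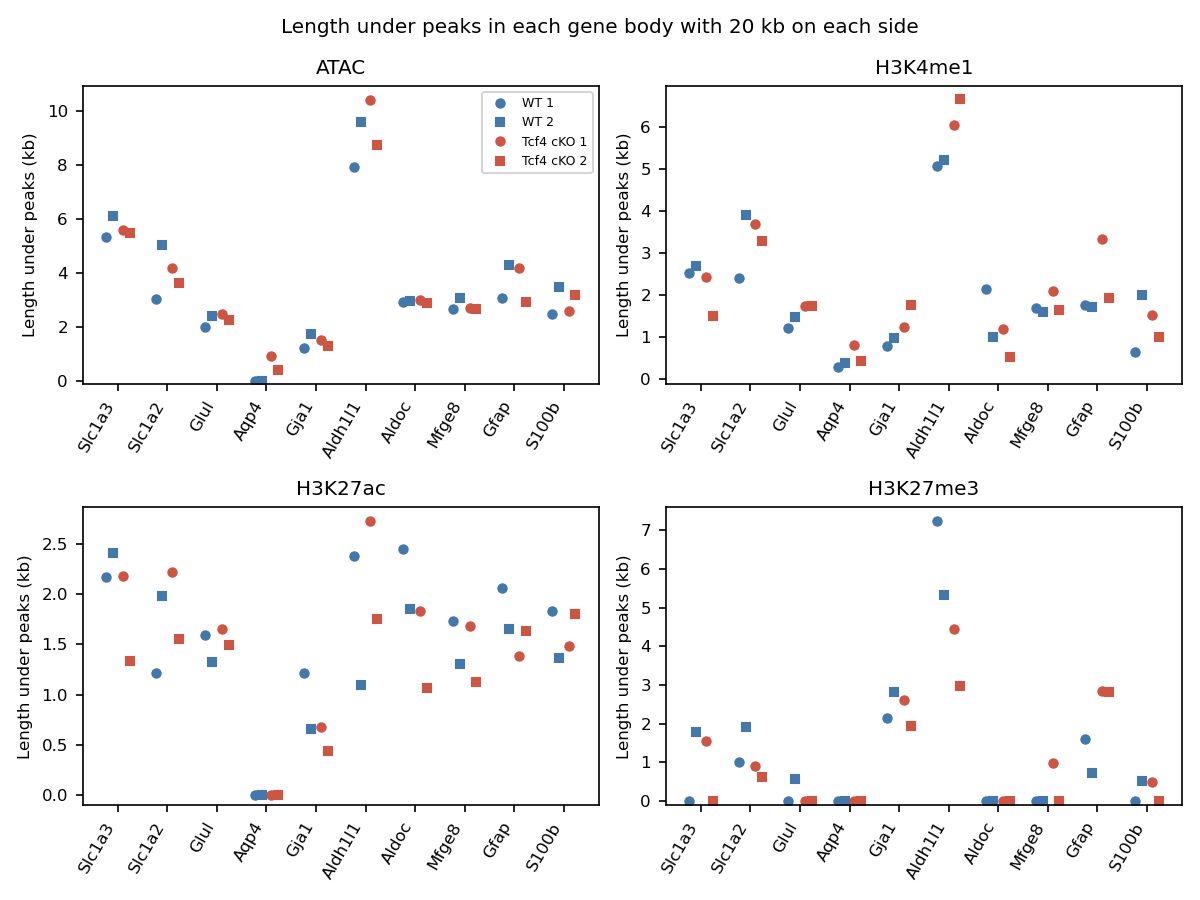
Length under peaks (kb) in each gene body with 20 kb on each side, by library, for ATAC-seq, H3K4me1, H3K27ac and H3K27me3; circles are replicate 1, squares replicate 2, blue WT and red Tcf4 cKO. Aqp4 stands at 0 in both WT ATAC-seq libraries, and Aldh1l1 has lower H3K27me3 lengths in Tcf4 cKO (4446 and 2983 bases) than in WT (7231 and 5340).

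Tcf4 regions lay near the astrocyte genes about as often as near other coding genes. A Tcf4 region, where anti-Flag peaks of both Tcf4-tag libraries overlapped, lay in the window of 7 of 10 genes, against 59.5% of all coding genes. Aqp4, Gja1 and Mfge8 had none. There were 9 such regions, with enrichments from 3.22 to 7.09. They lay on the promoters of Slc1a2 (5.99 and 6.27), Glul (4.08 and 4.54) and Aldoc (3.22 and 4.97), beside the Gfap RefSeq start (4.66 and 4.67) and 81.2 kb downstream of the outer start of Slc1a3, past the end of the gene (5.74 and 5.31). The other 4 lay outside the gene bodies, upstream of Aldh1l1 and S100b and past the ends of Aldh1l1 and Gfap. Counted by accessibility, Tcf4 covered at least 30% of 6 of the 33 regions (18.2%), against 36.3% of all consensus regions. Of the 12 regions with means over 0.5 higher in Tcf4 cKO 1 was covered, Mfge8 region 3 at 48.5%, and of the 4 lower ones 0. Over all consensus regions, Tcf4 covered 4.91% of the 2691 that were over 0.5 higher and 39.5% of the 4042 that were over 0.5 lower, so the low cover of the higher regions was not particular to these genes. Slc1a3 regions 6 and 10 and Aldh1l1 regions 7 and 8 had no anti-Flag peak in either Tcf4-tag library. An anti-Flag peak in Tcf4-tag library 1 alone lay on regions of either direction. Among those with lower means in Tcf4 cKO were Slc1a3 region 9 (5.13) and Aldh1l1 region 1 (4.14), and among those with higher means were Aldh1l1 regions 3 and 4 (3.57 and 4.97) and the Gja1 region (4.71).

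**Figure D5:**
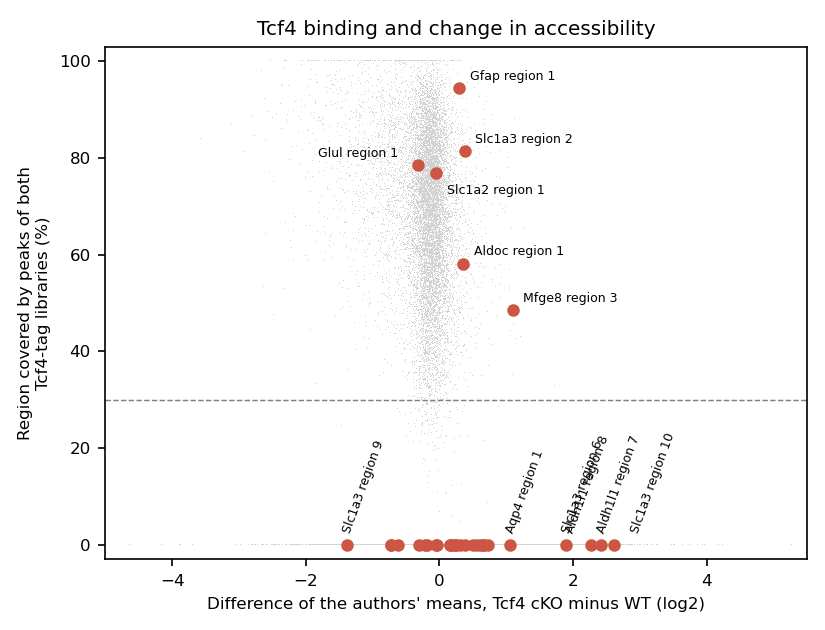
Percentage of each consensus region covered by Tcf4 regions against the difference of the authors' means (log2, Tcf4 cKO minus WT); red points are the 33 regions of the astrocyte genes, grey points all 32120 regions, and the dashed line is at 30%. The red points farthest to the right lie at 0%, with Mfge8 region 3 at 48.5%.

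Across 34 other astrocyte genes with 94 consensus regions, the median difference of the authors' means was 0.11. The mean was over 0.5 higher in Tcf4 cKO at 23 regions (24.5%), against 8.38% of all regions. It was over 0.5 lower at 5 (5.32%), against 12.6%. By limma 1 of 85 tested regions was called higher, against 1.45% of all tested regions. It lay in an intron of the bicarbonate transporter gene Slc4a4 (log2 difference 0.87 ± 0.16, SE, adjusted p = 0.0065). A further 3 were called lower, near Id2 and in introns of Nfia and Nfix (-0.66, -0.66 and -0.93), against 1.5%. Of the 94 regions 3 had peaks in both Tcf4 cKO libraries alone, against 0.56% of all regions. They lay near the endothelin receptor gene Ednrb, at the promoter of Mlc1 and in a further intron of Nfix. Another 2, near Gjb6 and Id3, had peaks in both WT libraries alone, against 1.02%. The Mlc1 promoter, of a membrane protein of astrocyte endfeet, had an authors' mean 2.71 higher in Tcf4 cKO.

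The authors' means of OPC marker regions were lower in Tcf4 cKO at the median, but not at every region. Of the 14 regions of Pdgfra, Cspg4, Olig1, Olig2 and Gpr17 (Sox10 had none) 0 had a mean over 0.5 higher in Tcf4 cKO, against 8.38% of all regions. Another 5 were over 0.5 lower, against 12.6%, and the differences ran from -0.86 to 0.40 with a median of -0.42. Their summed mean reads were 5861 in WT and 4387 in Tcf4 cKO, while those of the 10 astrocyte genes were 4801 and 5602. By limma 0 of the 14 were called. On the centred peak enrichments, both Tcf4 cKO libraries were above both WT libraries at 5 of the 14 and below both at 3. Over all 32120 regions these numbers were 7258 and 6974. Of the 14 regions 10 were covered by Tcf4, against 36.3% of all consensus regions. The part of these values in the differences at the astrocyte genes was not tested.

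The genes whose peak lengths over the 18 lists were most like those of Aldh1l1 were Plch2, Ccdc57 and Lrrc1 (Pearson r of log2 lengths 0.95, 0.95 and 0.94). For Slc1a3 they were Calhm2, Pdcd11 and Selenon (0.996, 0.996 and 0.993), and for Gfap they were Prodh, Dgcr6 and Auh (0.92, 0.91 and 0.90). The lists share the depth of their libraries and the assay, and empty lists weigh heavily in these values.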

How the data were processed

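Sorted Nkx2.1-lineage cells were profiled by ATAC-seq and Cut&Tag. Per the study's methods and the labels, the authors trimmed reads with Trim Galore, aligned them to mm10 with Bowtie2, removed duplicates with SAMtools and called peaks per library with MACS2. The deposited peak lists give a fold enrichment (a ratio over local background) and a −log10 q-value per peak. The authors' consensus table, from ATAC-seq peaks reproducible at an IDR of at most 0.05, gives a log2 mean of normalized reads per genotype. Its columns of fold change, p-value and FDR, and a table of footprint scores, hold the authors' own comparisons and were not used.

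The 10 genes, the gene lists and the motifs were chosen with earlier results of these data known. Every gene is named, with its promoter regions, regions called by limma, regions in 1 genotype alone and regions with means over 0.5 apart. Log2 peak enrichments, centred on each library's median, were compared with limma 3.58.1 (R 4.3.3) over regions with a peak in all 4 libraries, with Benjamini-Hochberg adjustment over all regions. Histone peaks were merged over libraries. Windows were gene bodies of GENCODE M21 with 20 kb on each side. The outer start is that of the gene model. RefSeq starts and sequences are of GRCm38, the same assembly as mm10, and 9 of the 10 genes had a RefSeq entry. Scripts (Python 3.11.15) were tested on simulated data. Alternatives were quantile normalization, filling in missing peaks, peaks with a −log10 q of at least 5, other windows and overlaps, a replicate block, and leaving out each library. Read depth is unknown, so no counting interval is given.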

Additional observations from a re-analysis of the deposited data

How the results depend on the processing

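The count of astrocyte gene regions called by limma in ATAC-seq (1) became 0 with quantile normalization, 2 with missing peaks set to the list's lowest enrichment (Slc1a3 regions 6 and 10, whose WT values were all filled in, so that this is no support for them, and not Aldh1l1 region 7), 0 when only peaks reaching 5 in −log10 q were kept, and ranged from 0 to 2 when each library was left out. Over all regions limma called 442 higher and 455 lower, against 178 and 236 with quantile normalization, 84 and 86 with the stricter peaks and 702 and 772 with a replicate block. Without either WT library limma called 0 of all tested regions, with 3798 and 3736 at an unadjusted p under 0.05, and the lone WT library was then assumed to vary like the Tcf4 cKO ones. Without Tcf4 cKO replicate 1, Aldh1l1 region 1 was called, lower in Tcf4 cKO (log2 difference -0.70). Without Tcf4 cKO replicate 2, Slc1a3 region 9 was called lower in Tcf4 cKO (-0.84) and Aldh1l1 region 7 higher (0.71). Each of these fits held a lone Tcf4 cKO library. With a replicate block the count was 1 in ATAC-seq and 0 in each mark. No pairing was seen, since the deviations of same-numbered libraries correlated at -0.01, 0.00, 0.03 and 0.02. The 2 regions with peaks in 1 genotype alone became 5 (4 in Tcf4 cKO, 1 in WT) when a peak had to cover 50% of the region, 5 (2 and 3) with the stricter peaks, and 2 to 4 with a library left out. The genes with separated ATAC-seq lengths (1) became 4 in the gene body alone, 2 with 50 kb on each side and 3 as a share of the library's covered length. For H3K4me1, 6 became 0 with the stricter peaks, 2 in the gene body alone and 3 as a share. For H3K27ac, 2 (0 higher, 2 lower) became 4 as a share (2 and 2) and 3 in the gene body alone (1 and 2). It stayed at 2 with the stricter peaks and with 50 kb on each side, but as 1 higher and 1 lower in each. For H3K27me3, 3 became 0 with the stricter peaks. No percentage of all coding genes is given for these settings. The genes with a Tcf4 region (7) became 4 in the gene body alone, and leaving out a Tcf4-tag library gave 7 to 8. The causes of these changes were not tested. The median difference of means stayed between 0.22 and 0.39.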

Other observations

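Marker genes of other cells gave further values of mean accessibility. The 5 consensus regions of microglia markers all had lower authors' means in Tcf4 cKO, by 0.28 to 0.96 on the log2 scale, and 4 were over 0.5 lower. Among 11 regions of interneuron markers 5 were over 0.5 lower and 1 over 0.5 higher, and limma called 1 of 10 tested lower, near Dlx2, a homeobox gene of the interneuron lineage (log2 difference -0.73 ± 0.16, SE, adjusted p = 0.0184). Of 14 endothelial regions 3 were over 0.5 higher and 0 over 0.5 lower, with a median difference of -0.02. Of 8 projection neuron regions 2 were over 0.5 higher and 2 over 0.5 lower. Each list holds 6 genes. Over all consensus regions 8.38% were over 0.5 higher and 12.6% over 0.5 lower. Of all tested regions limma called 1.45% higher and 1.5% lower.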
